A study of Mus musculus with 8 samples.

Results

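The genes described here encode amino acid transporters of the mouse, taken as the symbols that begin with Slc1a, Slc3a, Slc6a, Slc7a, Slc36a, Slc38a or Slc43a followed by a number, without Slc6a2 and Slc38a4, which were left out by the rule and not analysed here. They were measured in whole adrenal glands of Sf1:Cre;Prkar1a Fl/Fl mice (KO, 4 arrays) and wild-type littermates (WT, 4 arrays), all of 6 weeks of age, on Affymetrix Mouse Gene 2.0 ST arrays. The floxed gene, Prkar1a, encodes a regulatory subunit that restrains protein kinase A (PKA). Within the gland the Sf1 promoter drives Cre in steroidogenic cells, so deletion was directed to the cortex, while the arrays read the whole gland. The rule found 62 of the 21905 gene symbols that had at least 1 transcript cluster (a set of probes for 1 gene) of their own. A symbol with several clusters was read from the one with the highest mean. The 62 comprised 7 genes of the Slc1 family, 2 of Slc3, 19 of Slc6, 16 of Slc7, 5 of Slc36, 10 of Slc38 and 3 of Slc43, and 3 of them (Slc36a1os, Slc6a19os and Slc7a6os) are opposite-strand genes that carry a transporter's name but are not transporters. Slc6a9, a glycine carrier, shared its cluster with another gene and was not a member.

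Amino acid transporters are membrane proteins that take up, release or exchange amino acids and related small molecules. Some carry their substrate with sodium or protons, which allows accumulation against a gradient, and others exchange one amino acid for another. Several light chains of the Slc7 family reach the cell surface only when joined by a disulphide bond to a heavy chain, 4F2hc (also named CD98, encoded by Slc3a2) or rBAT (Slc3a1). In steroid-producing cells, as in others, imported amino acids feed protein synthesis, the mTORC1 kinase that senses them, and the making of glutathione, creatine and polyamines. The question posed to the arrays was which of these carriers differed in RNA level between KO adrenals, in which PKA is freed of this restraint in the cortex, and WT adrenals.

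Levels are given as log2 signals after RMA, the normalization used by the authors, so that 1 unit is a doubling, and a difference (log2 fold change) is KO minus WT. Median signals of the 8 arrays lay between 5.83 and 5.89. Pearson correlations across the clusters were 0.991 to 0.995 within KO and 0.9895 to 0.9954 within WT, and 0.978 to 0.984 between KO and WT arrays. Prkar1a itself had signals of 6.92 to 7.35 in KO adrenals and 8.70 to 9.11 in WT adrenals. Some cell markers also moved with the genotype. All 5 zona glomerulosa genes measured, 6 of 9 adipocyte and 5 of 6 brown adipocyte genes were lower in KO. In the adipocyte list Lep went the other way and did not pass (1.05, adjusted p = 0.233, limma). Higher in KO were 3 of 5 endothelial and 2 of 6 capsule and fibroblast genes. Other lists moved less: of 7 cortex genes 1 was higher and 1 lower. Of 5 macrophage and 8 chromaffin genes 1 each was higher, and of 4 Schwann and glia genes 1 was lower. The 3 lymphocyte genes did not pass, and of 3 proliferation genes 1 was lower. The 8 kidney genes differed by -0.17 to 0.04 and did not pass. In a whole gland, fewer cells of a type and less RNA per cell cannot be told apart, and the part that these markers play in the results below was not tested except where a value is given.

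The CD98 heavy chain and its partner LAT2 were the members with the most stable change. Slc3a2 and Slc7a8 were higher in KO adrenals, by 2.39-fold and 2.64-fold, and each kept its call in every alternative setting that was tried. Among all members, 8 were higher in KO and 6 were lower at an adjusted p under 0.05 (limma over 22822 clusters with 1 gene symbol, Benjamini-Hochberg), and 48 did not pass. That was 12.9% and 9.68% of the members, beside 7.35% of all clusters that were higher and 6.17% that were lower. The median log2 fold change of the members was -0.03, beside -0.02 over all clusters. With a log2 fold change over 1 in addition, the threshold of the study's methods, 3 members were higher (1.08% of all clusters) and 2 were lower (0.929% of all clusters). The per-gene test of those methods, with equal variances and the same adjustment, called 4 members higher (Slc3a2, Slc7a8, Slc7a4 and Slc6a8) and 2 lower (Slc36a2 and Slc6a11), beside 5.24% and 4.03% of all clusters.

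**Figure D1:**
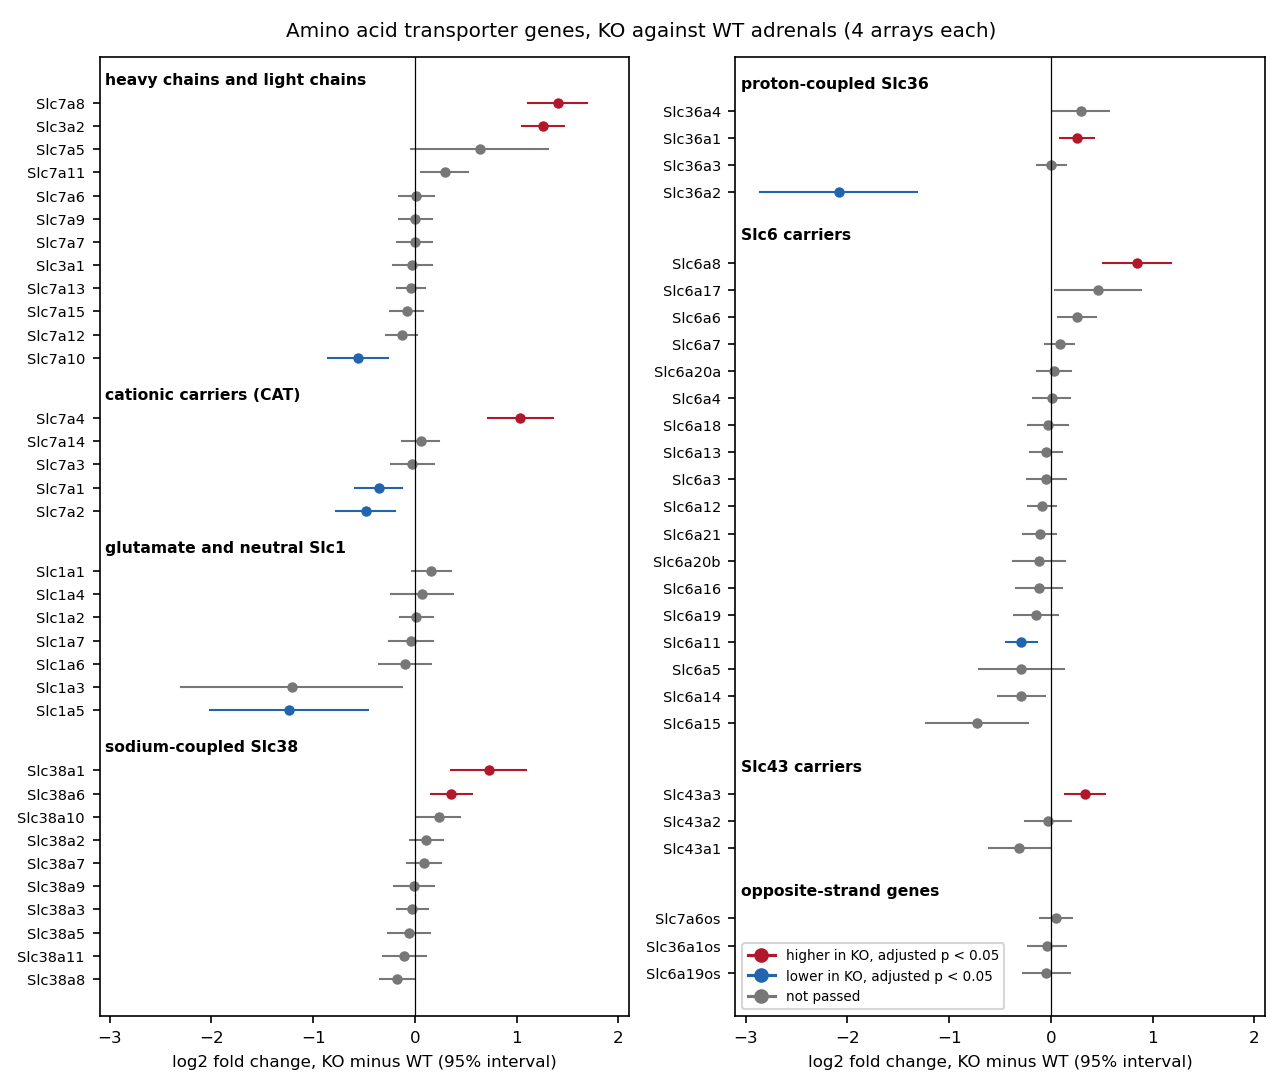
Log2 fold change (KO minus WT) of each of the 62 members with its 95% interval from limma, by class and in falling order within a class. Red members were higher and blue members lower in KO at an adjusted p under 0.05, and most of the 48 grey ones lie close to 0.

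Most of the 48 members that did not pass lay near no difference: 37 had a log2 fold change of at most 0.20 in size, 3 exceeded 0.50 in size (Slc1a3, Slc6a15 and Slc7a5), and 9 had an unadjusted p under 0.05. There were 28 members whose mean was below the median cluster (5.87) in both genotypes, where an array of this kind resolves differences poorly, and 1 of them (Slc6a11) was called, beside 3.82% of all such clusters in either direction. Of the other 34, 13 were called, beside 22.6% of the other clusters. KO and WT signals did not overlap for 7 members that were above WT in every KO array (10.0% of all clusters) and 3 that were below it (8.95% of all clusters). The first is a share close to that of all clusters, and the second is below it.

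The heavy chain Slc3a2 read 10.996, 10.960, 11.164 and 10.960 in KO adrenals, against 9.870, 9.845, 9.817 and 9.511 in WT adrenals. All KO arrays lay above all WT arrays, and the spread within a genotype was small beside the gap (log2 fold change 1.26 ± 0.09 SE, adjusted p = 1.9e-05 by limma). Slc7a8, which encodes LAT2, an exchanger of large and small neutral amino acids and a carrier of thyroid hormones, read 11.88, 11.56, 11.48 and 11.44 in KO adrenals and 10.34, 9.84, 10.19 and 10.37 in WT adrenals. Here too the groups were apart, with a difference of 1.40 ± 0.13 (adjusted p = 8.5e-05, limma). The other heavy chain, Slc3a1, which serves the cystine carriers of kidney and gut, read 5.08 to 5.39 in KO adrenals and 5.17 to 5.42 in WT adrenals, and did not pass (-0.03, 95% interval -0.22 to 0.16).

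The remaining light chains that pair with 4F2hc did not move as a class. Of the 6 (Slc7a5, Slc7a6, Slc7a7, Slc7a8, Slc7a10 and Slc7a11), 1 was higher and 1 lower. Slc7a5, which encodes LAT1, the leucine and thyroid hormone carrier of dividing cells, read 8.72, 8.95, 9.40 and 9.04 in KO adrenals, against 8.69, 8.86, 8.72 and 7.30 in WT adrenals. Its mean was higher in KO by 0.64 but the interval ran from -0.04 to 1.31 (adjusted p = 0.220, limma), and a single low WT array, replicate 4, carried much of the difference: without it the value was 0.27 (adjusted p = 0.275). Slc7a6 and Slc7a7, the exchangers of cationic for neutral amino acids, differed by 0.01 and -0.0041, with intervals that stayed within -0.17 and 0.19. Slc7a11, xCT, which exchanges cystine for glutamate, read 4.26, 4.23, 3.79 and 3.94 in KO adrenals and 3.79, 3.78, 3.70 and 3.78 in WT adrenals, signals at the low end of the array (0.29, adjusted p = 0.101). It passed only when KO replicate 3 was left out (0.38, adjusted p = 0.026), and its second cluster differed by 0.06. Slc7a12, Slc7a13 and Slc7a15, relatives of these light chains, lay between -0.13 and -0.04. The light chain Slc7a10 (Asc-1, a carrier of small neutral amino acids and D-serine found in neurons and white fat) was lower and is described with the fat-cell markers.

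**Figure D2:**
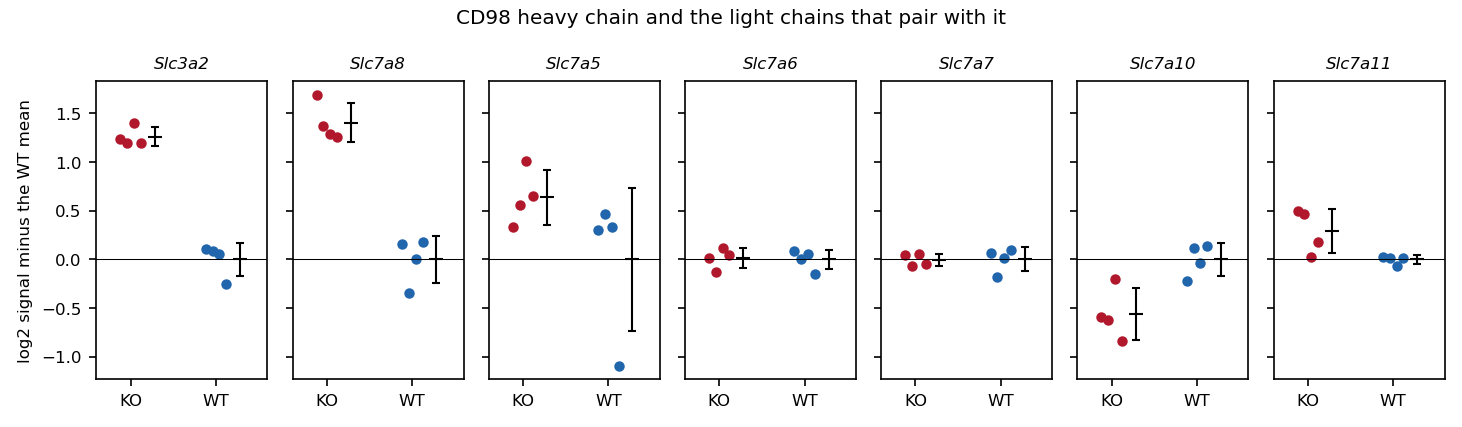
Signal of Slc3a2 and of the 6 light chains that pair with it, as log2 signal minus the mean of the 4 WT arrays of the same gene, 1 point per array with mean and SD beside them. Slc3a2 and Slc7a8 stand apart from WT in every KO array, Slc7a6 and Slc7a7 lie on the WT values, and the low WT point of Slc7a5 is replicate 4.

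Changes of pairs of members were set against each other within arrays, with 5 pairs chosen after their values were seen and an exact two-sided permutation test over 70 regroupings, whose smallest p is 0.0286. The change of Slc7a8 exceeded that of Slc7a5 by 0.77 (exact p = 0.2, adjusted over the 5 pairs 0.25) and that of Slc3a2 by 0.14 (exact p = 0.514, adjusted 0.514). Without WT replicate 4, in which Slc7a5 was low, the change of Slc7a8 exceeded that of Slc7a5 by 1.19 (exact p = 0.0286 over 35 regroupings, the smallest they can give). The difference between both genes was then 2.08 to 3.16 in KO arrays and 0.99 to 1.65 in the remaining WT arrays. In WT replicate 4 it was 3.07, inside the KO range. Leaving out that array because of its Slc7a5 value fixed the smallest p, which is therefore no test of this pair. Leaving out any other single array gave 0.50 to 0.93 (exact p = 0.143 to 0.371). The difference between Slc7a8 and Slc3a2 ranged from -0.0002 without WT replicate 2 to 0.29 without WT replicate 4. The change of Slc3a2 exceeded that of the other heavy chain Slc3a1 by 1.29 (exact p = 0.0286, adjusted 0.143). Slc3a1 had means of 5.26 in KO and 5.28 in WT, below the median cluster (5.87). This pair therefore mainly restates the separation of Slc3a2 already given. With all arrays, none of the 5 pairs passed after adjustment.

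The start regions of these genes are shown because the genes of the most stable change, Slc3a2 and Slc7a8, can be compared there with xCT, whose upstream sequence carries the amino acid response element read by the stress factor ATF4. RefSeq windows (GRCm38.p6, 250 bases before to 50 after a start) were matched for 46 of the 62 members (63 windows), among them 7 of the 14 that passed. The element was searched as TGATGNAA on both strands, and its matches are in capitals. It was found in 3.97% of all 32851 windows and in 5 of the 63 member windows. These lay in 4 of the 46 member genes, none of them among the 7 called members with a window. The stretches are the 120 bases just before the start of Slc3a2 (chr19:8713898-8714017, minus strand) and of Slc7a8 (chr14:54781887-54782006, minus strand), and bases 90 to 31 before that of Slc7a11 (chr3:50443644-50443703, minus strand).
Slc3a2: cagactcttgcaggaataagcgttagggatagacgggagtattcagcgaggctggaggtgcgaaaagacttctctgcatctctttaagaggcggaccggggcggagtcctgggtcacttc
Slc7a8: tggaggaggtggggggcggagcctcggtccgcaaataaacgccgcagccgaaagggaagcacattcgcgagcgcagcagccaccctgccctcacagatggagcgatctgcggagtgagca
Slc7a11: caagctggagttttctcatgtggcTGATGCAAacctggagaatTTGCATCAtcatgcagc

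Among the cationic carriers, which bring in arginine, lysine and ornithine, and their relatives, 1 of 5 genes was higher and 2 were lower in KO adrenals. Slc7a4, a relative of these carriers with no settled substrate, read 6.01, 6.49, 6.53 and 6.84 in KO adrenals and 5.50, 5.45, 5.45 and 5.32 in WT adrenals. Every KO array was above every WT array, and the difference was 1.04 ± 0.14 SE (adjusted p = 0.0009, limma). The lower genes were Slc7a2 and Slc7a1. Slc7a2 (CAT2) read 7.447, 7.638, 7.988 and 7.903 in KO adrenals, against 8.457, 8.227, 8.231 and 7.998 in WT adrenals (-0.48, adjusted p = 0.033), with KO replicate 3 and WT replicate 4 almost touching. Slc7a1 (CAT1), the general arginine carrier, was lower by a smaller step (8.30 to 8.63 in KO and 8.60 to 8.98 in WT, -0.36, adjusted p = 0.048), and the groups overlapped. Slc7a2 and Slc7a1 lost their calls in 10 and 13 of 19 alternative settings, and 5 and 6 of these left out a single array. Slc7a3 and Slc7a14 differed by -0.03 and 0.06 and did not pass.

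Of the 10 sodium-coupled neutral carriers of the Slc38 family, 2 were higher and 8 did not pass. Slc38a1 (SNAT1), which imports glutamine and alanine, read 7.75, 8.07, 8.40 and 8.49 in KO adrenals, against 7.38, 7.32, 7.31 and 7.81 in WT adrenals. WT replicate 4 exceeded the lowest KO array, and the other WT arrays lay close together (log2 fold change 0.72 ± 0.17 SE, adjusted p = 0.015, limma). Slc38a6 read 7.67, 7.55, 7.83 and 7.63 in KO adrenals and 7.18, 7.20, 7.40 and 7.47 in WT adrenals, without overlap (0.36, adjusted p = 0.024). Slc38a2 (SNAT2), the member of the family that other tissues induce when amino acids run short, read 10.15 to 10.29 in KO adrenals and 9.99 to 10.22 in WT adrenals and did not pass (0.11, interval -0.05 to 0.27). The difference between the changes of Slc38a1 and Slc38a2 was 0.61 (exact permutation p = 0.0857, adjusted over the 5 pairs 0.143). Slc38a9, the arginine sensor on the lysosome, read 8.90 to 9.23 in KO adrenals and 8.94 to 9.15 in WT adrenals (-0.01, interval -0.21 to 0.19). Slc38a10 differed by 0.23 (adjusted p = 0.144), and the remaining 5 lay between -0.17 and 0.09.

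The proton-coupled carriers of the Slc36 family divided. Slc36a1 (PAT1), which moves small amino acids out of the lysosome, read 8.01, 7.95, 7.85 and 7.90 in KO adrenals and 7.82, 7.59, 7.60 and 7.65 in WT adrenals, a difference of 0.26 (adjusted p = 0.043, limma) with the lowest KO array just above the highest WT array. This call was lost in 13 of 19 alternative settings. Slc36a4 differed by 0.30 (adjusted p = 0.155) and Slc36a3 by 0.01. Slc36a2 (PAT2) was lower and is described below with the fat-cell markers.

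Start regions of Slc38a6 and Slc36a1 are shown because PKA acts on transcription through CREB and related factors, which bind the cAMP response element TGACGTCA and its core TGACG. Both were searched on both strands, and the core lies within the full element. The full element was found in 1.79% of all windows and in 1 of the 63 member windows, that of Slc38a6, 121 bases before its start. The core was found in 20.8% of all windows and in 16 of the 63 member windows. These belonged to 15 of the 46 genes, 3 of them called (Slc38a6, Slc36a1 and Slc7a1, the first pair higher and the third lower in KO). Matches are in capitals in bases 210 to 91 before the start of Slc38a6 (chr12:73286638-73286757, plus strand) and 120 to 61 before that of Slc36a1 (chr11:55204220-55204279, plus strand).
Slc38a6: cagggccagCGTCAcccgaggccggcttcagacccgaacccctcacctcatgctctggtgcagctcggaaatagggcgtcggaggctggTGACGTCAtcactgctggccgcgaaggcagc
Slc36a1: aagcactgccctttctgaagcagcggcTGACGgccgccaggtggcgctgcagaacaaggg
The stretches printed above for Slc3a2 and Slc7a8 hold neither the full element nor its core. A match of letters is not a bound site, and a window without one says nothing about a factor.

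In the Slc6 family, 1 of 18 carriers was higher and 1 was lower. Slc6a8, the creatine carrier, read 10.30, 10.14, 10.33 and 10.19 in KO adrenals, against 9.65, 9.15, 9.02 and 9.74 in WT adrenals, so the KO arrays were closely grouped and all above WT (log2 fold change 0.85 ± 0.15 SE, adjusted p = 0.0037, limma). Slc6a6, the taurine carrier, was at 11.35 to 11.54 in KO adrenals and 10.98 to 11.32 in WT adrenals. Its groups did not overlap, but the difference of 0.25 did not pass (adjusted p = 0.077) except without dim clusters (adjusted p = 0.048). Slc6a15, a carrier of branched-chain amino acids and proline, read 6.76, 6.03, 5.67 and 6.72 in KO adrenals and 7.24, 6.72, 7.07 and 7.05 in WT adrenals. Its value of -0.73 missed the threshold (adjusted p = 0.060), and its KO arrays fell into a higher and a lower pair. With the adipocyte mean as a covariate, described below, the value was -1.22 (adjusted p = 0.012), and with the brown adipocyte mean it was -0.95 (adjusted p = 0.287). Slc6a11, a GABA carrier, passed with a low signal (4.885 to 4.996 in KO and 5.120 to 5.347 in WT, -0.29, adjusted p = 0.020). The carriers that mark neurons and chromaffin cells did not pass: Slc6a17, a carrier of synaptic vesicles, differed by 0.46 (adjusted p = 0.156) and, without KO replicate 3, by 0.26 (adjusted p = 0.278), and Slc6a3 and Slc6a4, the dopamine and serotonin carriers, by -0.05 and 0.01. The other 11 carriers of the family, for glycine, proline, GABA, betaine and neutral amino acids or without a known substrate, lay between -0.29 and 0.09 and did not pass.

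In the small Slc43 family, Slc43a3 was higher in KO (0.33, adjusted p = 0.032), with 9.82 to 10.16 in KO adrenals and 9.58 to 9.85 in WT adrenals, which overlapped. It is known as a carrier of purine bases in spite of its family. Slc43a2 (LAT4) differed by -0.03, and Slc43a1 (LAT3) by -0.31 (adjusted p = 0.176). Members typical of kidney and gut showed little: Slc3a1, Slc7a9, Slc7a13, Slc6a18 and Slc6a19 had differences between -0.15 and 0.01. The 3 opposite-strand genes differed by -0.05 to 0.05.

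**Figure D3:**
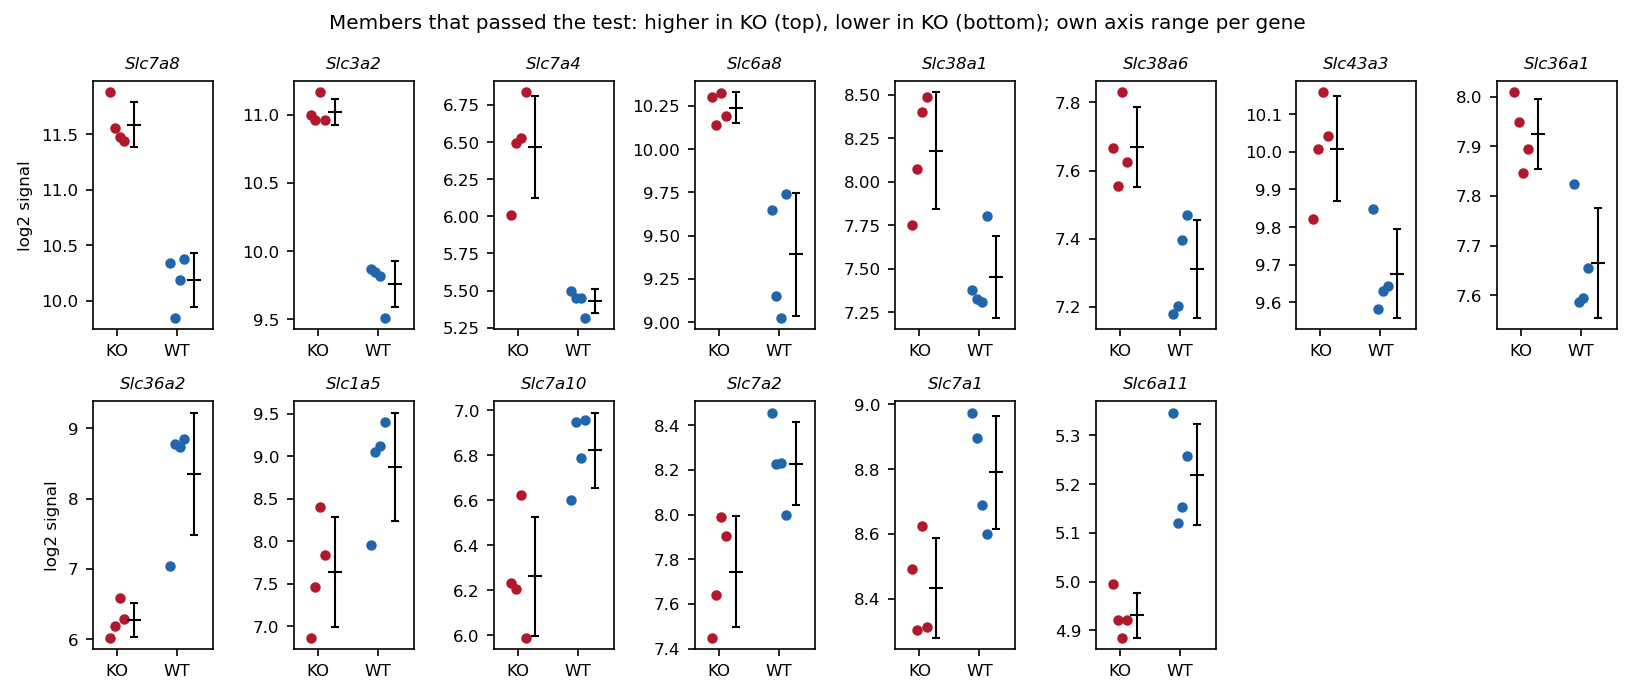
Log2 signal of the 14 members that passed the test, 1 point per array, KO left of WT, with mean and SD (n = 4 each) beside the points. The axis range differs between genes, so that heights can be compared only within a panel. The 8 genes of the upper row were higher and the 6 of the lower row lower in KO.

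The members with the largest falls also varied between arrays of the same genotype, and so did the markers of fat. Slc36a2, a proton-coupled carrier of glycine and proline that marks brown and beige adipocytes, was lower by 4.24-fold in KO adrenals. It read 6.01, 6.18, 6.59 and 6.29 in KO adrenals and 7.05, 8.78, 8.74 and 8.84 in WT adrenals (log2 fold change -2.08 ± 0.35 SE, adjusted p = 0.0027, limma). WT replicate 1 stood apart from the other WT arrays and lay closer to the KO arrays. The means of the brown adipocyte list (6 genes, Ucp1 and Cidea among them) were 4.54, 4.62, 4.78 and 4.91 in KO adrenals and 5.26, 8.05, 8.09 and 8.81 in WT adrenals, with the same WT array low. Without WT replicate 1, Slc36a2 differed by -2.52 (adjusted p = 7.8e-06), and among all members 7 were higher and 4 lower.

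Slc1a5, which encodes ASCT2, the exchanger of glutamine and other small neutral amino acids, read 6.86, 7.47, 8.40 and 7.83 in KO adrenals, against 7.95, 9.05, 9.12 and 9.40 in WT adrenals. The groups overlapped at WT replicate 1 and KO replicate 3 (log2 fold change -1.24 ± 0.35 SE, adjusted p = 0.041, limma), and the gene's other cluster differed by only -0.31 (adjusted p = 0.131). The call was lost on leaving out any 1 of 6 arrays. Slc1a3 (EAAT1), a glutamate carrier of glia, read 4.69, 5.36, 5.97 and 5.46 in KO adrenals and 5.11, 7.01, 6.32 and 7.88 in WT adrenals, and its mean difference of -1.21 did not pass (adjusted p = 0.146). The value depended on single WT arrays, with -1.70 without replicate 1 (adjusted p = 0.014) and -0.78 without replicate 4 (adjusted p = 0.297), and it passed with the replicate number as a block (adjusted p = 0.047). The means of the adipocyte list (9 genes measured, Adipoq and Fabp4 among them) were 7.09, 8.04, 9.01 and 8.11 in KO adrenals and 8.28, 9.68, 9.42 and 9.87 in WT adrenals. Within the KO adrenals Slc1a5, Slc1a3 and this mean had the same order of arrays, with replicate 1 lowest and replicate 3 highest. Within the WT adrenals Slc1a3 had the order of this mean, while Slc1a5 had replicates 2 and 3 the other way round. Slc1a4 (ASCT1), the nearest relative of Slc1a5, read 6.23 to 6.80 in KO adrenals and 6.34 to 6.81 in WT adrenals (0.07, interval -0.24 to 0.37). The difference between the changes of Slc1a5 and Slc1a4 was -1.31 (exact permutation p = 0.0857, adjusted over the 5 pairs 0.143). The other 4 genes of the Slc1 family, all glutamate carriers, differed by -0.10 to 0.16. Among them Slc1a2 (EAAT2), like Slc1a3 a carrier of glia, differed by 0.01.

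Slc7a10 read 6.23, 6.21, 6.62 and 5.99 in KO adrenals and 6.60, 6.95, 6.79 and 6.96 in WT adrenals (log2 fold change -0.56 ± 0.13 SE, adjusted p = 0.017, limma), with an overlap between KO replicate 3 and WT replicate 1. Its lowest KO array was replicate 4, whereas the adipocyte mean was lowest in KO replicate 1. With the adipocyte mean of each array as a covariate in the fit, the difference was -0.19 for Slc1a5 (adjusted p = 0.496), -0.30 for Slc7a10 (adjusted p = 0.311), 0.13 for Slc1a3 (adjusted p = 0.894) and -1.20 for Slc36a2 (adjusted p = 0.037). With the brown adipocyte mean instead, a covariate chosen after the data were seen, Slc36a2 differed by -0.52 (adjusted p = 0.245) and Slc1a5 by -0.01 (adjusted p = 0.995). The brown adipocyte mean did not overlap between genotypes, so that fit cannot fully separate it from genotype. With the adipocyte and the brown adipocyte mean, Slc3a2 differed by 1.24 and 1.08 and Slc7a8 by 1.19 and 1.26, and both genes passed.

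**Figure D4:**
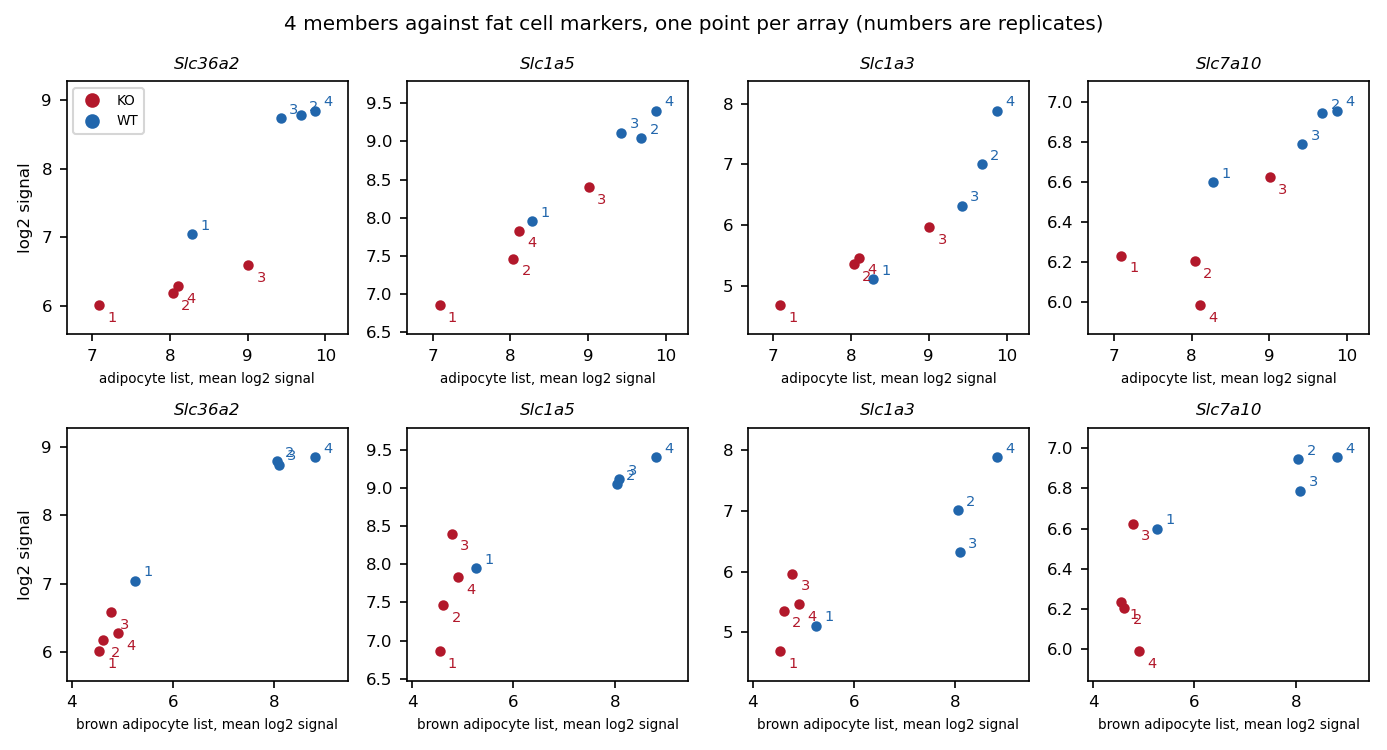
Log2 signal of 4 members (vertical axes) against the mean log2 signal of the adipocyte list (upper row) and the brown adipocyte list (lower row), 1 point per array, KO in red and WT in blue, numbered by replicate. The arrays low for the fat-cell markers, among them WT replicate 1, are also low for Slc36a2, Slc1a5 and Slc1a3.

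The pathways around the carriers were read from lists of genes, which were chosen with earlier results of these data known. Counts for these lists stand beside 7.35% of all clusters higher, 6.17% lower and a median log2 fold change of -0.02. Of the clusters not below the median in both genotypes, 22.6% were called in either direction. Whether any list departs from these shares was not tested. Of 25 genes of the amino acid stress response measured, 4 were higher and 1 lower in KO adrenals (median 0.13). Mthfd2, an enzyme of mitochondrial folate metabolism, read 7.39, 7.52, 8.06 and 7.81 in KO adrenals, against 6.34, 6.23, 6.20 and 6.13 in WT adrenals (log2 fold change 1.47 ± 0.13 SE, adjusted p = 6.5e-05, limma). Ddit4 and Sesn2, which restrain mTORC1, were higher by 1.21 and 0.80, and Atf5 by 0.24. Vldlr was lower by 0.42. Atf4, the factor that drives this response, read 7.97 to 8.21 in KO adrenals and 7.76 to 7.95 in WT adrenals and did not pass (0.22, adjusted p = 0.089). Among its classical targets, Asns and Trib3 differed by -0.0028 (adjusted p = 0.991) and 0.28 (adjusted p = 0.239). In the same list Eif4ebp1 (0.50, adjusted p = 0.0501, limma) and Psat1 (-0.47, adjusted p = 0.062) lay just short of the threshold. Of the 25 genes, 8 were above WT in every KO array and 1 was below it (10.0% and 8.95% of all clusters).

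Of 31 genes through which amino acids are sensed by mTORC1, 5 were higher and 26 did not pass (median 0.06). The called ones were small changes: Lamtor3, a part of the lysosomal anchor of mTORC1, by 0.40, Fnip2 by 0.34 and Mlst8 by 0.30. Depdc5, part of a complex that shuts the pathway off, was higher by 0.30 and Nprl3 by 0.26. Mtor itself read 8.36 to 8.54 in KO adrenals and 8.59 to 8.85 in WT adrenals (-0.23, adjusted p = 0.074).

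Enzymes that use amino acids moved both ways, with 5 of 33 higher and 5 lower (median -0.12). Gatm, which makes the precursor of creatine, read 6.14, 6.94, 6.23 and 6.56 in KO adrenals and 5.31, 5.58, 5.17 and 5.03 in WT adrenals (log2 fold change 1.19, adjusted p = 0.0012), while Gamt, the next enzyme of creatine synthesis, read 8.73, 8.67, 8.75 and 8.77 in KO adrenals and 9.36, 9.01, 9.24 and 9.49 in WT adrenals (-0.55, adjusted p = 0.0036). The creatine carrier Slc6a8 was higher, as given above. Got1, a transaminase of aspartate, was higher by 0.90, Odc1, the first enzyme of polyamine synthesis, by 0.79 and Glul, glutamine synthetase, by 0.63. Cdo1, which degrades cysteine, read 6.42, 7.71, 9.27 and 8.33 in KO adrenals and 9.09, 11.05, 10.70 and 11.21 in WT adrenals (-2.58, adjusted p = 0.015), with the array order of the adipocyte mean in KO adrenals. Bckdha, of branched-chain breakdown, Gpt, a transaminase of alanine, and Csad, of taurine synthesis, were lower by 0.64, 0.62 and 0.58.

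Among 12 other carriers and partners outside these families, 3 were higher and 9 did not pass (median 0.12). Slc17a6, a vesicular glutamate carrier known from neurons, read 8.10, 6.73, 7.34 and 6.92 in KO adrenals and 4.79, 5.01, 4.68 and 4.63 in WT adrenals (log2 fold change 2.50 ± 0.25 SE, adjusted p = 0.00012, limma). Cd44, a surface protein that can hold xCT at the membrane, was higher by 0.95 and Ctns, the lysosomal cystine exporter, by 0.40. Of 8 chromaffin markers, 1 (Pnmt) passed, and their means overlapped between genotypes (9.28 to 9.73 in KO and 9.44 to 9.66 in WT).

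**Figure D5:**
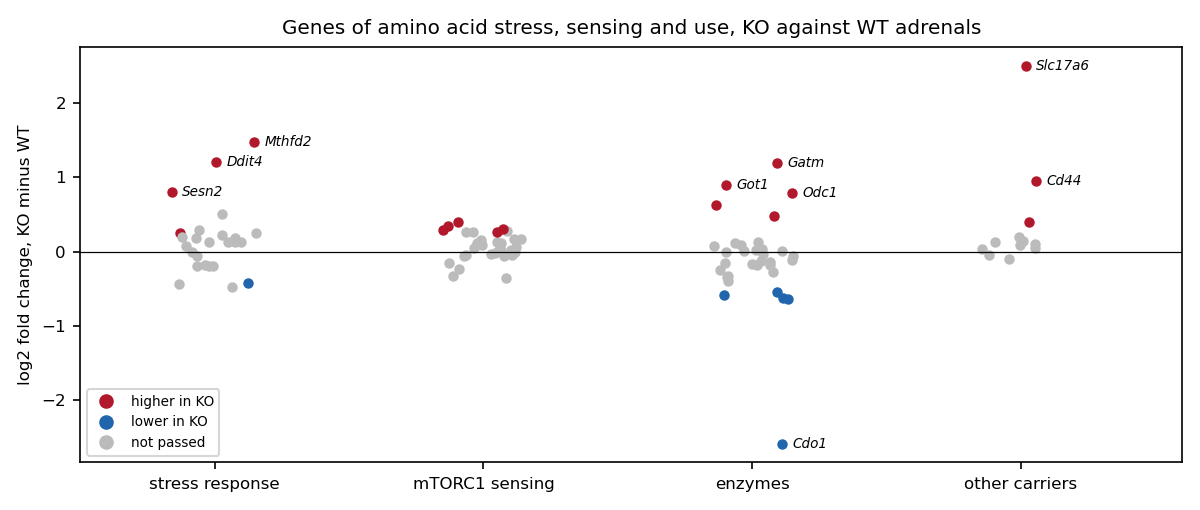
Log2 fold change (KO minus WT) of each measured gene of 4 lists: amino acid stress response (25 genes), amino acid sensing by mTORC1 (31), enzymes of amino acid use (33) and other carriers and partners (12). Red and blue genes were higher and lower in KO at an adjusted p under 0.05, and the called genes with the largest changes are named.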

How the data were processed

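RNA of whole adrenal glands from 4 KO and 4 WT mice was hybridised to 1 array each. The authors normalised the arrays by RMA (background correction, quantile normalization and summary per transcript cluster, R package affy, version not given in the sources used here) and deposited log2 signals. The number of arrays limits the precision. A second table, which holds the authors' own fold changes and adjusted p-values, was not used. Of 28067 clusters, 22822 had 1 gene symbol in the platform annotation, 1703 several and 3542 none. Differences between KO and WT were tested in limma (3.58.1, R 4.3.3) with lmFit and eBayes over the 22822 clusters, with Benjamini-Hochberg adjustment, and an adjusted p under 0.05 was called. The fit was tested on simulated data. Replicates are separate biological samples per the labels. The replicate numbers were not treated as a pairing of KO and WT arrays. Members and gene lists were chosen with earlier results of these data known. Called members, those with the highest means in a class and known markers of other cells were named, with the 4 called genes of largest change in each direction from each list. Atf4, Asns, Trib3, Eif4ebp1, Psat1, Mtor, Nprl3, Gamt and Lep were named after their values were seen. Promoter sequences came from RefSeq (GRCm38.p6). Alternatives covered the test, a replicate block, dim clusters, variance models, array weights, scaling, fat-marker covariates and leaving out each array.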

Additional observations from a re-analysis of the deposited data

Results flagged for a closer look

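In 12 of 124 groups of 4 arrays (62 members in 2 genotypes), 1 array lay far from the other 3 by Dixon's gap test. Chance flags about 1 group in 20. Among called members, Slc36a2 was at 7.05 in WT replicate 1, against 8.74 to 8.84 in the other WT arrays, Slc38a1 at 7.81 in WT replicate 4, against 7.31 to 7.38, and Slc3a2 at 9.51 in WT replicate 4, against 9.82 to 9.87. Slc7a5 was at 7.30 in WT replicate 4, against 8.69 to 8.86 in the other WT arrays. The remaining flags in WT were Slc6a19 at 4.92 in replicate 2 (4.66 to 4.67 in the others), Slc1a7 at 6.14 in replicate 1 (5.83 to 5.87), Slc7a11 at 3.70 in replicate 3 (3.78 to 3.79) and Slc38a8 at 5.50 in replicate 3 (5.70 to 5.73). In KO, Slc6a4 was at 8.21 in replicate 2 (8.13 in the others), Slc38a11 at 8.24 in replicate 2 (7.86 to 7.89), Slc36a4 at 8.01 in replicate 2 (8.42 to 8.48) and Slc36a3 at 4.31 in replicate 3 (4.15 to 4.17).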

How the results depend on the processing

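No called direction was reversed under any alternative. Of the 14 calls, 2 (Slc3a2 and Slc7a8) held in every setting and 6 in every fit that left out 1 array. Those fits called 5 to 7 members higher and 2 to 5 lower. Against 8 higher and 6 lower, the methods' t-test, run here with equal variances, called 4 and 2. Welch's test called 2 and 0 (9 and 6 at an unadjusted p under 0.05), and a log2 fold change over 1 left 3 and 2. The adipocyte covariate left 5 and 3, and the brown adipocyte covariate, added after the data were seen, 2 and 0 (7 and 6 unadjusted). The brown adipocyte mean was lower in every KO array than in every WT array (4.54 to 4.91 and 5.26 to 8.81). That covariate and genotype therefore cannot be fully told apart. With it the limma SE went from 0.13 to 0.24 for Slc7a8 and from 0.17 to 0.30 for Slc38a1. The cause of the lost calls was not tested. Several lost calls kept their size or grew: with the brown covariate Slc7a4 was 0.99, Slc38a1 0.97, Slc38a6 0.55, Slc7a1 -0.61, Slc7a2 -0.75 and Slc6a11 -0.42, and with the adipocyte covariate Slc6a8 was 0.78, Slc43a3 0.36 and Slc7a1 -0.41. Other lost calls became smaller. With the brown covariate Slc36a1 was 0.08, Slc43a3 0.16, Slc6a8 0.67, Slc7a10 -0.29, Slc36a2 -0.52 and Slc1a5 -0.01. With the adipocyte covariate Slc36a1 was 0.12, Slc7a10 -0.30, Slc7a2 -0.42 and Slc1a5 -0.19. The other settings called 6 to 9 higher and 5 or 6 lower, the replicate block 6 and 6. Across the clusters, same-numbered arrays did not deviate together (correlations -0.04 to 0.04), so the numbers were not treated as a pairing. Replicate 1 did have the lowest adipocyte and brown adipocyte means in both genotypes. Under the block Slc43a3, Slc36a1, Slc7a1 and Slc7a2 were no longer called (limma adjusted p 0.061 to 0.086), while Slc1a3 and Slc6a15 passed (0.047 and 0.026). The limma SE fell from 0.35 to 0.15 for Slc1a5 (adjusted p = 0.0016) and from 0.17 to 0.11 for Slc38a1 (adjusted p = 0.0059). It rose from 0.09 to 0.10 for Slc43a3 and from 0.13 to 0.14 for Slc7a2. Without dim clusters Slc6a6 and Slc6a15 passed (0.048 and 0.044).

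Calls were lost without these single arrays: Slc7a10 without WT replicate 2 (-0.52), Slc38a6 without KO replicate 3, WT replicate 1 or WT replicate 2 (0.30 to 0.32), Slc6a11 without KO replicate 2, 3 or 4 or WT replicate 1 (-0.29 to -0.25), Slc7a2 without KO replicate 1 or 2 or WT replicate 1, 2 or 3 (-0.48 to -0.39), Slc7a1 without any but KO replicate 3 and WT replicate 4 (-0.39 to -0.30), Slc1a5 without any but KO replicate 3 and WT replicate 1 (-1.30 to -0.98), Slc43a3 without any but KO and WT replicate 1 (0.28 to 0.33) and Slc36a1 without any but WT replicate 1 (0.23 to 0.29). Slc6a15 passed without KO replicate 1 or 4 (-0.88 and -0.87). Low signals limit the 28 members below the median cluster in both genotypes.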
